A study of Mus musculus with 9 samples.

Results

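The 10 genes described here encode transcription factors of the mast cell lineage: Mitf, the GATA factors Gata1 and Gata2, the basic helix-loop-helix factors Tal1 and Lyl1, the LIM-only adaptors Lmo2 and Lmo4, and Runx1, Spi1 and Cebpa. They were taken by name from a table of 23951 gene symbols, and all 10 were found. All 10 also passed the filter on low values, at least 1 FPKM in at least 3 libraries (FPKM, a gene's sequenced fragments scaled to the length of its transcript and to the total of its library). RNA was sequenced from 9 libraries of mast cells cultured out of wild type C57BL/6 mouse marrow. The cultures were kept for 4 to 6 weeks in the cytokines IL-3 (10 ng/ml) and stem cell factor, SCF (10 ng/ml), and per the labels more than 95% of the cells carried the IgE receptor and CD117, the product of Kit. The untreated group of 3 libraries got no further agent, the IgE group of 3 got 0.5 µg/ml DNP-specific IgE for 18 h, and the antigen group of 3 got the same IgE followed by 50 ng/ml DNP-BSA for 2 h. DNP-BSA is albumin carrying the hapten DNP, and it cross-links the IgE held by the receptor. No label says whether replicates were separate cultures or animals, so the tests measure the spread between these libraries, which may be technical.

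In blood development these factors work as overlapping complexes. GATA factors bind DNA next to TAL1 or LYL1, which pair with E proteins, and LMO2 bridges them to the adaptor LDB1. GATA2 and MITF are needed for mast cell development and for the expression of many granule and receptor genes, GATA1 acts with them, and RUNX1 and the ETS factor PU.1 (encoded by Spi1) act earlier and in several myeloid lineages. C/EBPα drives granulocyte and basophil programs, and in mouse progenitors it and MITF repress each other, with MITF favouring the mast cell fate. MITF is also known as a regulator of Kit and of mast cell proteases.

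After antigen, 4 of the 10 genes were higher than with IgE alone (Spi1, Tal1, Runx1 and Lyl1), 4 were lower (Lmo4, Lmo2, Cebpa and Gata1), and Gata2 and Mitf did not pass the test. Spi1 rose the most, 1.98-fold, and Lmo4 fell the most, to 0.308 of its IgE level. Changes were tested with limma on log2(FPKM + 1) across 10890 genes, and genes with a Benjamini-Hochberg adjusted p under 0.05 are called. In antigen versus IgE 73.8% of all tested genes were called, 37.6% of them higher and 36.2% lower as shares of the tested genes, so 8 of 10 called members lie near the background. The libraries of these groups did not overlap for 8 of the 10 members, beside 75.3% of all tested genes. The members' median log2 change was -0.03, beside 0.01 over all tested genes. The median size of the change regardless of direction was 0.32 (log2) over all tested genes, and Lmo4, Spi1, Lmo2, Tal1, Cebpa, Runx1 and Gata1 changed by more than that.

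IgE alone was accompanied by smaller changes. Lmo2 and Lmo4 were higher than in untreated cells, Tal1, Lyl1 and Mitf were lower, and the other 5 members did not pass the test. Of all tested genes 30.1% were called, 15.9% higher and 14.2% lower, and the libraries did not overlap for 7 members and 43.2% of all genes. The count of called members was 8 without IgE replicate 3, when Gata2, Runx1 and Cebpa also passed as lower. At that setting 4366 of the 10890 genes were called, against 3273 with all libraries, so the background rose as well. The median log2 change of the members was -0.15, beside -0.01 over all genes. In antigen versus untreated cells 3 members were higher (Spi1, Tal1 and Runx1), 5 were lower (Lmo4, Cebpa, Lmo2, Gata1 and Mitf), and Gata2 and Lyl1 did not pass. Of all tested genes 74.3% were called, 38.7% higher and 35.6% lower, and the libraries did not overlap for 9 members and 79.6% of all genes. Each pair of comparisons shares the 3 libraries of a group, so their results are not independent.

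**Figure D1:**
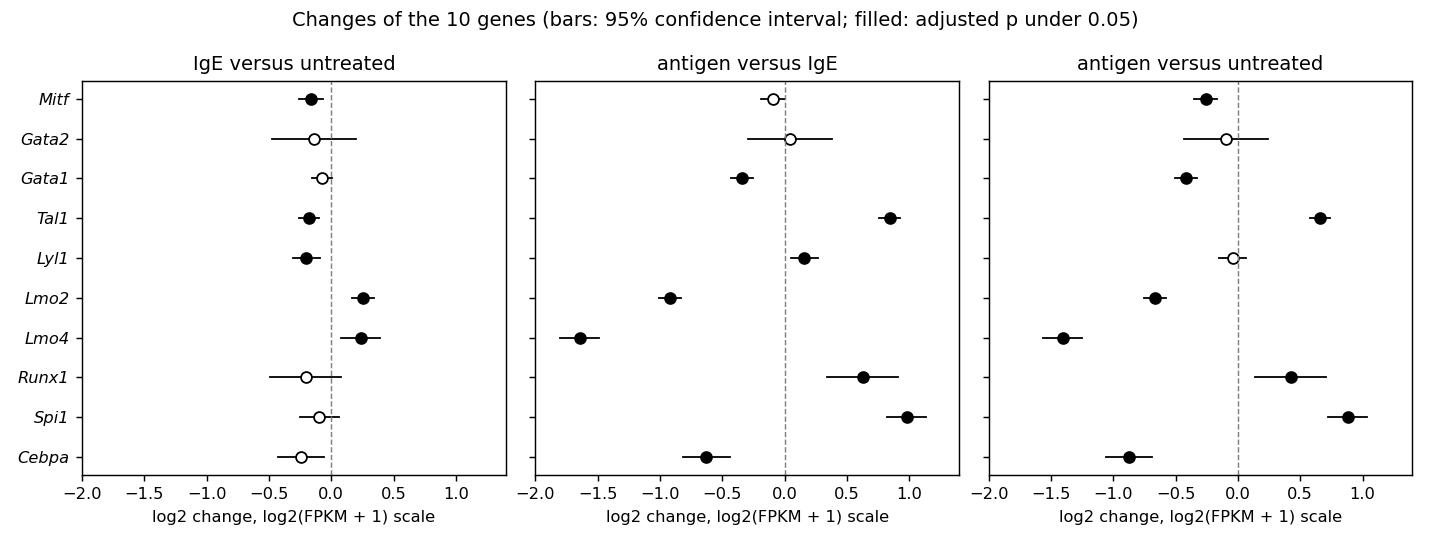
Log2 changes of the 10 genes on the log2(FPKM + 1) scale in each comparison, with 95% confidence intervals (not adjusted for the number of genes) and filled points where the adjusted p is under 0.05. Spi1, Tal1 and Runx1 lie to the right of 0 after antigen and Lmo4, Lmo2, Cebpa and Gata1 to the left, while the IgE changes lie between -0.24 and 0.25.

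FPKM is scaled by transcript length, so levels can be set beside each other between genes. In untreated cells the order ran from Gata2, at 209.8 ± 8.85 FPKM (SD, n = 3 libraries, as for all errors unless stated), to Cebpa, at 6.45 ± 0.210 FPKM. Between them stood Tal1, Lyl1, Gata1, Mitf, Spi1, Lmo4, Runx1 and Lmo2 in falling order. Each neighbouring pair in that order was separated in all libraries except Lmo4 and Runx1, whose libraries overlapped. Gata2 ranked 306 of 10890 tested genes by its mean and Cebpa ranked 7470. With IgE the order was unchanged, and the neighbours that overlapped were Spi1 and Lmo4. After antigen Spi1 stood in the third place, above Lyl1, and Lmo4 in the eighth, and the overlapping neighbours were Gata1 and Runx1.

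**Figure D2:**
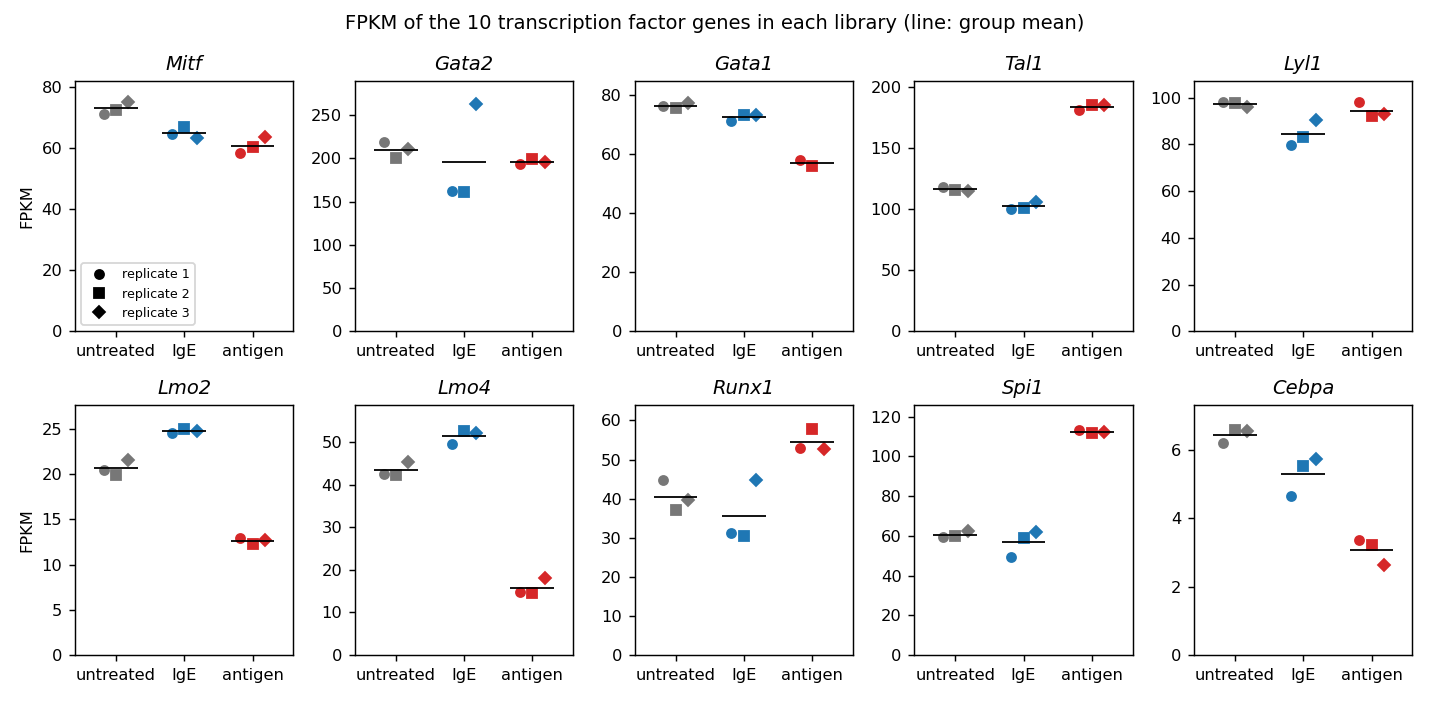
FPKM of each of the 10 genes in all 9 libraries, with a line at the mean of each group and a symbol for the replicate number. Antigen libraries of Spi1 and Tal1 lie above all others and those of Lmo2, Lmo4 and Cebpa below all others, and IgE replicate 3 stands above its group for Gata2 and Runx1. The value of 0 listed for Gata1 in antigen replicate 3 is treated as missing and not drawn.

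Some facts of the libraries touch these values. The libraries held an estimated 20.5 to 39.2 M reads, as read from the spacing of low FPKM values. All antigen libraries, at 20.5 to 28.45 M, were below all others, at 29.55 to 39.2 M. Their total FPKM was above all others, at 554415 to 575197 against 469206 to 524935. Effects of depth or total FPKM therefore cannot be told apart from those of antigen. At the lowest depth and lowest level the estimated reads were 143 for Cebpa, a coefficient of variation of 8.36% from counting alone, and 548 or more for the other members, 4.27% or less. IgE replicate 3 lay apart: over 9661 genes at 1 FPKM or more in every library, the SD of its log2 difference to its group's remaining libraries was 0.175, and the same measure was 0.0990 to 0.123 in the other 8 libraries. Antigen replicate 3 has a value of 0 for each of 441 X and Y genes with values above 0 in all 8 remaining libraries, and for 62 of 12970 such genes on autosomes. These X and Y zeros were treated as missing. The mast cell markers Kit, Fcer1a, Ms4a2, Tpsb2, Hdc and Slc18a2 were present and summed to 13224 to 15133 FPKM per library. Cpa3 and Cma1, the other genes of that marker list, were listed at 0 in all 9 libraries. Whether a listed 0 is a failed estimate cannot be told from the table, so it is not read as absence of the transcript. Of the markers of other cells, 6 of 8 for neutrophils and their progenitors, 7 of 9 for lymphocytes, 6 of 10 for macrophages and dendritic cells and 6 of 9 for erythroid cells were under 1 FPKM in every library, and the first 2 lists each summed to 3.08 FPKM or less. In bulk RNA, a change in the share of cells of a type and a change in RNA per cell cannot be told apart.

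Promoter windows of the RefSeq annotation (GRCm38.p6, 250 bases before to 50 after a gene's start) were available for 8 of the 10 genes, in 15 windows, and none for Lmo2 and Spi1. Shown here are the 250 bases before a start for Tal1 and Runx1, which rose after antigen, and for Lmo4 and Gata1, which fell. Which start was used in these cells is not known from 1 value per gene. The capitals mark words, on either strand, of the GATA type (AGATAA or AGATAG, and TGATAA or TGATAG), the MITF family type (CACGTG or CATGTG) and the purine box bound by PU.1 (GAGGAA).
Tal1 (chr4:115056176-115056425, plus strand): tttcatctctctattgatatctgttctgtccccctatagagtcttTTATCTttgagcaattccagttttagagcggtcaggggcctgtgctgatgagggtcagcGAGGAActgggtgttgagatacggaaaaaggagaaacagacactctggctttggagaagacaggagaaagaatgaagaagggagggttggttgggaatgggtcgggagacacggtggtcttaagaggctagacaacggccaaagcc
Runx1 (chr16:92826075-92826324, minus strand): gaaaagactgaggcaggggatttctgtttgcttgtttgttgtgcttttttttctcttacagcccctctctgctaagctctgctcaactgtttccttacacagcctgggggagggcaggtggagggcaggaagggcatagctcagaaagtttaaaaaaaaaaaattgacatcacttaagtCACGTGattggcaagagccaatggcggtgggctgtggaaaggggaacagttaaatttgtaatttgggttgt
Lmo4 (chr3:144205256-144205505, minus strand): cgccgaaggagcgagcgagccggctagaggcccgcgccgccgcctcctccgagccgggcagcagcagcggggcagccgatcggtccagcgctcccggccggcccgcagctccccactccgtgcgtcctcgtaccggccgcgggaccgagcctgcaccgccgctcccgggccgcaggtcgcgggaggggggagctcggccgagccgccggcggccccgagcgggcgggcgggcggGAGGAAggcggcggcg
Gata1 (chrX:7967911-7968160, minus strand): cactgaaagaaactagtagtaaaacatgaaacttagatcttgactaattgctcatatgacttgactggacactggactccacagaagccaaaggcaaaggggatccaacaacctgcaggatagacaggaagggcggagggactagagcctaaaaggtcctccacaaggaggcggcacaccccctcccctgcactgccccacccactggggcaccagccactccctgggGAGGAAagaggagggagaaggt
The Tal1 window shown held 1 GATA word and 1 purine box, and the Lmo4 and Gata1 windows shown held 1 purine box each. The Runx1 window shown held 1 CACGTG, which is also an E-box. The same Runx1 window held 2 RUNX words (TGTGGT or TGCGGT) past the start, outside the printed stretch. Tal1, Runx1 and Lmo4 have further windows, which differ. Runx1 window 2 held 1 purine box, Lmo4 windows 2 and 3 held no purine box, and Tal1 window 2 held none of the words.

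The share of the 15 member windows that held a word was set beside the share in the whole table of 32851 windows, with no test. It was higher for the purine box and lower for the GATA, MITF family, RUNX and E-box words. GATA words were in 3 member windows, 20.0%, against 29.8% of all windows, and all 3 belonged to Tal1 or Mitf. Purine boxes were in 5 of 15 (33.3%, against 28.3%), MITF family words in 1 (6.67%, against 20.4%) and RUNX words in 2 (13.3%, against 22.4%). The E-box CANNTG, which includes the MITF family words, was in 9 of 15 (60%, against 72.3%). The C/EBP palindrome was in none of the 15, but it was in only 2 of all 32851 windows (0.00609%). For so rare a word its absence from the member windows cannot show whether they hold C/EBP sites. Windows of 1 gene can overlap, as Lmo4 windows 2 and 3 do, and a match of 6 letters describes the sequence only.

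**Figure D3:**
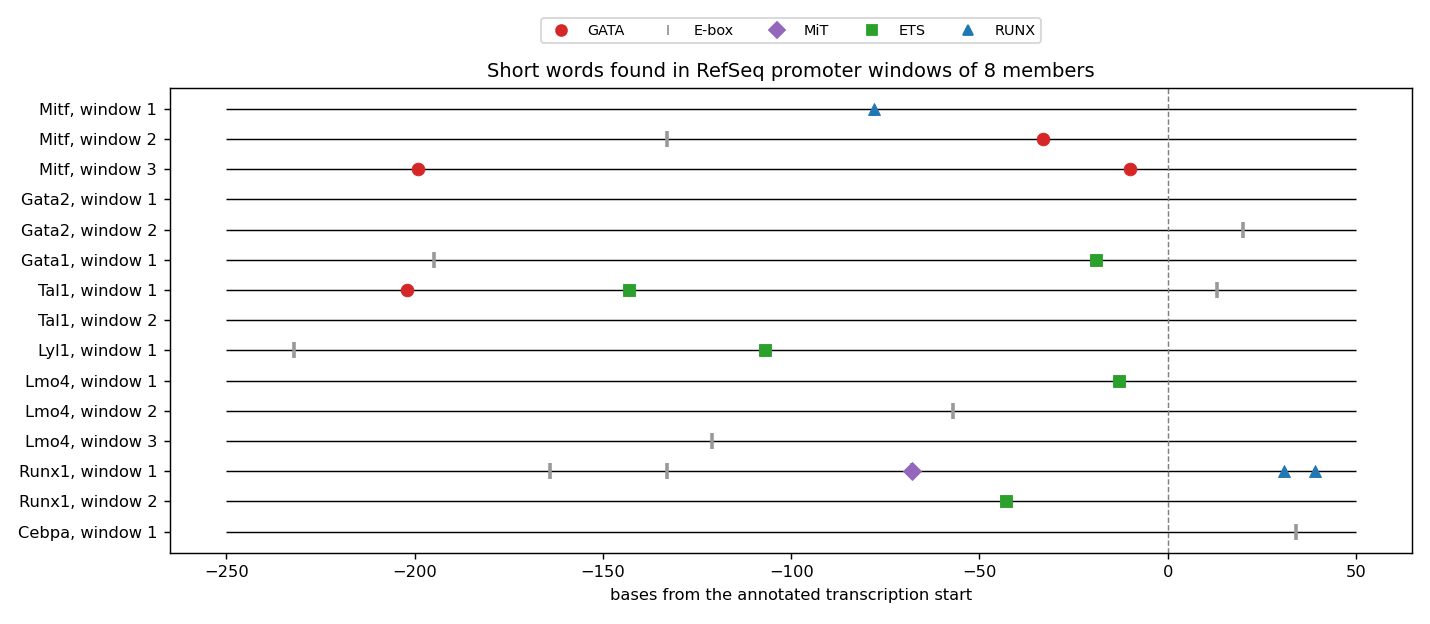
Positions of the searched words along each RefSeq promoter window, in bases from the annotated start (horizontal axis), 1 line per window. GATA words occur in a Tal1 window and in Mitf windows 2 and 3, and Gata2 window 1 and Tal1 window 2 hold none of the words.

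Mitf encodes a basic helix-loop-helix leucine zipper factor that controls granule and receptor genes, and the table gives 1 value over its several promoters and isoforms. Its FPKM was 71.3, 72.6 and 75.1 in untreated, 64.5, 67.0 and 63.4 in IgE, and 58.3, 60.4 and 63.7 in antigen libraries. All IgE and antigen libraries lay below all untreated libraries, and the IgE and antigen libraries overlapped. Mitf fell with IgE (log2 -0.16, SE 0.0428, adjusted p = 0.0163), a call lost without untreated replicate 3 (adjusted p = 0.0676). It was also lower in antigen than in untreated cells (log2 -0.26, adjusted p = 0.000264), with -0.54 after quantile normalization (adjusted p = 4.28e-07). The difference between antigen and IgE was -0.10 on the log2 scale (95% confidence interval -0.19 to 0.00026, adjusted p = 0.0668). That difference passed the test under median centring (-0.14, adjusted p = 0.0104), quantile normalization (-0.30, adjusted p = 3.39e-05) and trimmed mean scaling (-0.12, adjusted p = 0.0226), and without IgE replicate 3 (adjusted p = 0.0406) or antigen replicate 3 (adjusted p = 0.0283).

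Gata2, the most abundant of the 10, encodes the GATA factor that maintains progenitors and mast cell genes. Its FPKM was 218, 201 and 210.3 in untreated, 163, 162 and 263 in IgE, and 193, 199 and 195 in antigen libraries. IgE replicate 3 was the highest of all 9 libraries and the other IgE libraries were the lowest, so the group means hide the order. Antigen versus IgE gave a log2 change of 0.04 (SE 0.151, 95% confidence interval -0.30 to 0.38, adjusted p = 0.824), and IgE versus untreated gave -0.14 (adjusted p = 0.525). Without IgE replicate 3 Gata2 was lower with IgE (log2 -0.37, adjusted p = 0.000249) and higher after antigen than with IgE (log2 0.27, adjusted p = 0.000202). Over the alternatives the antigen versus IgE value ran from -0.28 with quantile normalization to 0.27, with adjusted p from 0.000202 to 0.976. In IgE replicate 3 Gata2 lay 0.69 (log2) above its group's remaining libraries, and 0.542% of the 10890 tested genes had a larger absolute difference.

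Antigen and untreated libraries of Gata2 did not overlap, since the highest antigen value was 199 and the lowest untreated value 201 FPKM, but the difference did not pass (log2 -0.10, adjusted p = 0.574). It passed when only these groups were in the fit (adjusted p = 0.0472), when IgE replicate 3 was left out of the shared spread (adjusted p = 0.0320), and with quantile normalization, which gave -0.52 (adjusted p = 0.0169).

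Gata1, on chromosome X, encodes the GATA factor of erythroid, megakaryocytic, eosinophil and mast cells. Its FPKM was 76.4, 75.5 and 77.4 in untreated, 71.3, 73.3 and 73.1 in IgE, and 57.9 and 56.0 in antigen libraries 1 and 2, with antigen replicate 3 missing. The 3 groups did not overlap. Gata1 fell after antigen to 0.785 of its IgE level (log2 -0.34, SE 0.0389, adjusted p = 2.98e-05, n = 2 antigen libraries) and to 0.745 of its untreated level (log2 -0.42, adjusted p = 6.91e-06). The IgE difference of -0.07 did not pass (adjusted p = 0.139) and did after quantile normalization (-0.14, adjusted p = 0.0248). Quantile normalization gave -0.55 against IgE (adjusted p = 2.87e-06) and -0.69 against untreated cells (adjusted p = 5.61e-07). With the deposited 0 kept, both calls were lost, at -2.30 against IgE (adjusted p = 0.165) and -2.37 against untreated (adjusted p = 0.153). The summed megakaryocyte markers, of a lineage that uses Gata1, were 524 to 535 FPKM in untreated, 438 to 471 in IgE and 432 to 444 in antigen libraries, and most of the sum was Itga2b (395 ± 6.24 FPKM after antigen). Of the 5 tested, Gp5 fell after antigen from 55.6 ± 6.02 to 10.3 ± 0.577 FPKM (log2 -2.32, adjusted p = 6.08e-10) and Gp9 fell (log2 -0.50, adjusted p = 0.000651), whereas Itga2b rose by 0.12 (adjusted p = 0.0141) and Vwf by 0.24 (adjusted p = 0.0409) on the log2 scale against IgE. Gp1ba did not pass (log2 0.03), and Pf4 was under 1 FPKM throughout. The part of these markers in the change of Gata1 was not tested.

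The ratio of Gata2 to Gata1 within a library followed IgE replicate 3. On the log2 scale the ratio was 1.52, 1.41 and 1.44 in untreated, 1.19, 1.14 and 1.85 in IgE, and 1.74 and 1.83 in antigen libraries. Antigen libraries were above all untreated libraries, at a mean of 3.44-fold against 2.74-fold, and IgE replicate 3 was above both antigen libraries. These ratios were compared by their ranges, with no test.

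Tal1 encodes a basic helix-loop-helix factor of blood stem cells and of the erythroid, megakaryocytic and mast cell branches. Its FPKM was 118, 115 and 115 in untreated, 99.5, 101 and 106 in IgE, and 181, 185 and 185 in antigen libraries, with no overlap between any of the groups. Tal1 rose 1.80-fold after antigen compared with IgE (log2 0.84, SE 0.0365, adjusted p = 8.89e-09) and was 1.59-fold above untreated cells (log2 0.66, adjusted p = 5.43e-08). It fell with IgE alone (log2 -0.18, adjusted p = 0.00476). All 3 calls held under all 21 alternatives, but quantile normalization lowered the rise after antigen to 0.50 against IgE (adjusted p = 7.38e-06) and to 0.26 against untreated cells (adjusted p = 0.000797).

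Lyl1 encodes the closest relative of TAL1 and can replace it in part in blood stem cells. Its FPKM was 98.0, 97.8 and 96.1 in untreated, 79.9, 83.4 and 90.6 in IgE, and 98.3, 92.2 and 93.0 in antigen libraries. The IgE libraries lay below those of both other groups, which overlapped each other. Lyl1 fell with IgE (log2 -0.20, SE 0.0488, adjusted p = 0.0119), a call that held under all 21 alternatives. It was higher after antigen than with IgE by 0.16 (log2, adjusted p = 0.0132), a call lost with median centring (0.11, adjusted p = 0.0633), without IgE replicate 1 (adjusted p = 0.0544) and without antigen replicate 1 (adjusted p = 0.0565). After quantile normalization the direction turned, to -0.12 (adjusted p = 0.0972). Antigen and untreated cells differed by -0.04 (95% confidence interval -0.15 to 0.07, adjusted p = 0.451), and by -0.37 after quantile normalization (adjusted p = 0.000201).

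Within each library Tal1 exceeded Lyl1. The log2 ratio was 0.26, 0.24 and 0.26 in untreated and 0.32, 0.28 and 0.22 in IgE libraries, which overlapped. In antigen libraries it was 0.88, 1.0035 and 0.99, above all others, so the mean ratio went from 1.21-fold with IgE to 1.95-fold after antigen.

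Lmo2 encodes the LIM-only adaptor that holds the TAL1, GATA and LDB1 complex together. Its FPKM was 20.5, 19.9 and 21.6 in untreated, 24.6, 25.0 and 24.8 in IgE, and 12.9, 12.3 and 12.7 in antigen libraries, again with no overlap between the groups. Lmo2 rose 1.20-fold with IgE (log2 0.25, SE 0.0408, adjusted p = 0.00149). After antigen it fell to 0.510 of the IgE level (log2 -0.92, SE 0.0408, adjusted p = 1.07e-08) and to 0.612 of the untreated level (log2 -0.67, adjusted p = 1.22e-07). All 3 calls held under all 21 alternatives.

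Lmo4 encodes a LIM-only adaptor that also binds LDB1. Its FPKM was 42.6, 42.4 and 45.4 in untreated, 49.6, 52.6 and 52.1 in IgE, and 14.9, 14.6 and 18.0 in antigen libraries, and the groups did not overlap. The fall of Lmo4 after antigen was the largest change among the 10 genes, to 0.308 of the IgE level (log2 -1.64, SE 0.0699, adjusted p = 7.81e-09) and 0.364 of the untreated level (log2 -1.41, adjusted p = 2.35e-08). The rise with IgE, 1.18-fold (log2 0.24, adjusted p = 0.0281), was lost with no filter on low values (adjusted p = 0.0596) and without untreated replicate 1 or 2 or IgE replicate 2 (adjusted p = 0.0864, 0.0783 and 0.0828).

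The ratio of Lmo2 to Lmo4 was close to constant without antigen, at log2 values of -1.06, -1.09 and -1.07 in untreated and -1.01, -1.07 and -1.07 in IgE libraries. In antigen libraries it was -0.21, -0.25 and -0.50, above all others, with Lmo2 on average at 0.802 of Lmo4 against 0.483 with IgE.

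**Figure D4:**
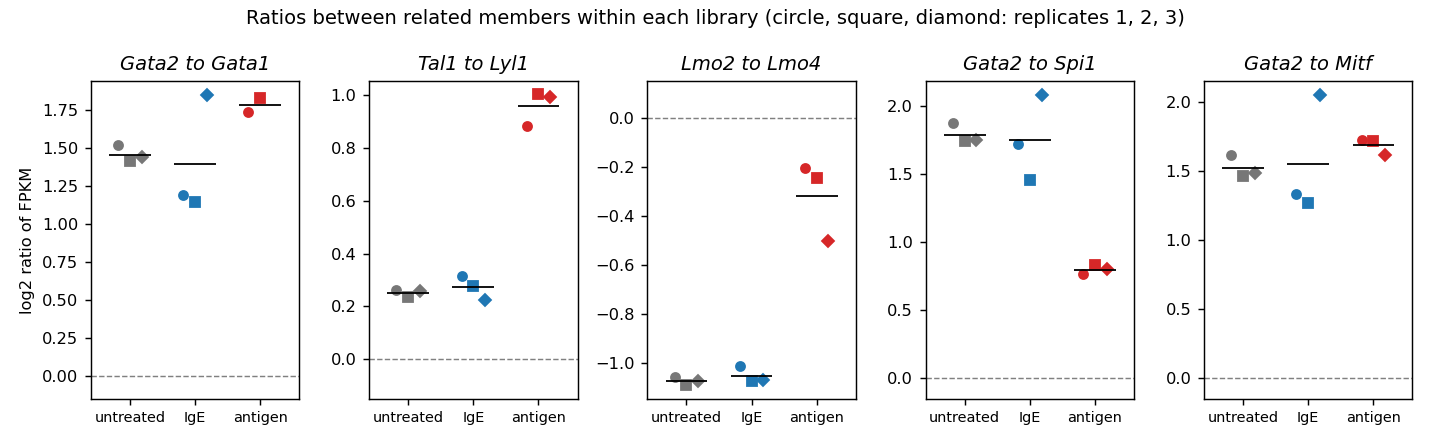
Log2 ratios of FPKM between related members within each library, with a line at the mean of each group and a dashed line at a ratio of 1. Antigen libraries stand apart for Tal1 to Lyl1, Lmo2 to Lmo4 and Gata2 to Spi1, whereas IgE replicate 3 is the highest point for each ratio with Gata2 on top.

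Runx1 encodes the DNA-binding subunit of a core binding factor needed for blood stem cells. Its FPKM was 44.9, 37.1 and 39.6 in untreated, 31.2, 30.4 and 44.8 in IgE, and 53.0, 57.9 and 52.7 in antigen libraries. Antigen libraries were above all others, while IgE replicate 3 lay inside the untreated range, 0.52 (log2) above the others of its group. Runx1 rose 1.54-fold after antigen compared with IgE (log2 0.63, SE 0.128, adjusted p = 0.00116), a call that held under all 21 alternatives. It was 1.35-fold above untreated cells (log2 0.42, adjusted p = 0.0119), a call lost with quantile normalization (0.21, adjusted p = 0.200). IgE versus untreated gave -0.21 (adjusted p = 0.250), and -0.38 without IgE replicate 3 (adjusted p = 0.00353).

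Spi1 encodes PU.1, an ETS factor of myeloid and B cells that also acts with GATA factors in mast cells. Its FPKM was 59.3, 59.97 and 62.3 in untreated, 49.3, 58.9 and 62.1 in IgE, and 113, 112 and 112 in antigen libraries. Antigen libraries lay far above the other groups, which overlapped. Spi1 rose 1.98-fold compared with IgE (log2 0.98, SE 0.0705, adjusted p = 4.66e-07) and 1.86-fold compared with untreated cells (log2 0.88, adjusted p = 1.01e-06). Both calls held under all 21 alternatives, with 0.57 against untreated cells after quantile normalization (adjusted p = 7.76e-05), and IgE versus untreated was -0.10 (adjusted p = 0.325). The log2 ratio of Gata2 to Spi1 was 1.46 to 2.08 over the untreated and IgE libraries and 0.77, 0.83 and 0.80 in antigen libraries.

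Markers of macrophages and dendritic cells, which also use PU.1, moved in different directions. Their summed level was 22.3 to 23.7 FPKM in untreated, 26.5 to 27.3 in IgE and 41.9 to 43.2 in antigen libraries. Of 10 markers found, 3 were tested. Cd68 was at 8.62 ± 0.310 FPKM in untreated, 16.1 ± 0.245 in IgE and 30.2 ± 0.478 in antigen libraries. Its rise was already called with IgE alone (adjusted p = 2.17e-06), where Spi1 did not pass. Emr1 fell at both steps, from 12.2 ± 0.475 to 9.36 ± 0.280 and then 7.75 ± 0.0620 FPKM. Cd14 was tested because of its antigen libraries alone, at 3.45 ± 0.413 FPKM against 0.714 ± 0.0632 with IgE. The defining genes C1qa, C1qb, Itgax and Flt3 were under 1 FPKM in every library, and Ly86 was listed at 0. Csf1r, which was not tested, was at 1.05 ± 0.133 FPKM in untreated, 0.716 ± 0.122 in IgE and 0.612 ± 0.0414 in antigen libraries. The summed erythroid markers, in a lineage that uses Tal1 and Gata1, were 22.6 to 27.4 FPKM in untreated, 34.7 to 36.5 in IgE and 80.2 to 83.4 in antigen libraries. Tfrc, the transferrin receptor, made up 50.1 ± 1.63 FPKM of the antigen sum and Hbb-bt, a beta globin gene, 25.6 ± 1.05 FPKM. Hbb-bt was already at 14.96 ± 1.395 FPKM in untreated and 21.1 ± 0.817 FPKM in IgE libraries, while Hba-a1, Hba-a2, Hbb-b1, Alas2 and Klf1 were under 1 FPKM throughout. The part of either marker list in the changes of Spi1, Tal1 or Gata1 was not tested.

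Cebpa, the lowest of the 10, encodes C/EBPα, a factor of granulocytes and basophils. Its FPKM was 6.21, 6.59 and 6.55 in untreated, 4.65, 5.53 and 5.74 in IgE, and 3.37, 3.23 and 2.65 in antigen libraries, with no overlap between the groups. Cebpa fell after antigen to 0.581 of the IgE level (log2 -0.63, SE 0.0837, adjusted p = 5.72e-05) and to 0.478 of the untreated level (log2 -0.87, adjusted p = 4.23e-06). Both falls held under all 21 alternatives. The IgE difference of -0.24 missed the threshold (adjusted p = 0.0504) and passed under 6 alternatives, with -0.29 (adjusted p = 0.0263) without IgE replicate 3. The summed basophil markers, 1 of which is Gata2 itself, were 6053 to 6576 FPKM in untreated, 5617 to 6733 in IgE and 5407 to 5678 in antigen libraries. Most of each sum was Fcer1a, which is also a mast cell marker. Its level was 5652 ± 281 FPKM in untreated, 5639 ± 621 in IgE and 4815 ± 135 in antigen libraries. The basophil markers did not move as 1 group after antigen. Prss34 fell (log2 -0.74), Cd200r3 rose (log2 0.52), and neither Mcpt8 (log2 0.20, adjusted p = 0.0638) nor Fcer1a (log2 -0.22, adjusted p = 0.0758) passed. The part of these markers in the fall of Cebpa was not tested.

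Genes that act in complexes with the 10 were followed in a list of 15 partners and cofactors, all of them tested. After antigen 8 were higher than with IgE, 5 were lower and 2 did not pass, and the list median was 0.14 on the log2 scale. In that comparison 37.6% of all tested genes were called higher and 36.2% lower. Kdm1a, the histone demethylase LSD1, rose 2.85-fold (adjusted p = 2.04e-10), its corepressor Rcor1 1.55-fold (adjusted p = 3.02e-06) and Gfi1b, a repressor that recruits them, 1.63-fold (adjusted p = 3.45e-06). Zfpm1, which encodes the GATA cofactor FOG-1, went from 4.40 ± 0.885 to 8.90 ± 0.240 FPKM (log2 0.89, adjusted p = 2.02e-05), while the Gata1 value fell. Ldb1, the partner of both LIM-only adaptors, fell to 0.851 of the IgE level (log2 -0.23, adjusted p = 0.00343), with -0.43 after quantile normalization (adjusted p = 0.000123).

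Among the dimer partners of TAL1 and LYL1, the E protein gene Tcf3 fell from 18.6 ± 2.25 to 13.5 ± 0.474 FPKM (log2 -0.42, adjusted p = 0.000433). Tcf12, another E protein gene, did not pass (log2 -0.08, adjusted p = 0.187), and did after quantile normalization (log2 -0.16, adjusted p = 0.0142). The Id genes, whose products sequester E proteins, split: Id2 rose 2.24-fold to 859 ± 16.9 FPKM (adjusted p = 2.64e-08) while Id3 fell to 0.369 of its IgE level (log2 -1.12, adjusted p = 6.3e-06) and Id1 fell from 1.37 ± 0.332 to 0.354 ± 0.117 FPKM (log2 -0.80, adjusted p = 0.000502). Id1 was under 1 FPKM in the antigen libraries and was tested because of the others. Cbfb, the subunit that binds RUNX1, was higher by 0.14 on the log2 scale (adjusted p = 0.0101), a call lost with median centring (0.09, adjusted p = 0.0756), and it turned to -0.10 with quantile normalization (adjusted p = 0.0384).

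With IgE alone 1 of the 15 partners was higher and 2 were lower, beside 30.1% of all tested genes called. Cbfb rose 1.17-fold (adjusted p = 0.00267), Gfi1 fell to 0.744 of its untreated level (log2 -0.36, adjusted p = 0.00432), and Ldb1 was lower by a narrow margin (log2 -0.16, adjusted p = 0.0458, and from 0.00806 to 0.161 over the alternatives). In antigen versus untreated cells, where 74.3% of all tested genes were called, 7 of the partners were higher and 5 lower. Those with the smallest adjusted p were Kdm1a (2.68-fold), Id2 (2.49-fold), Gfi1b (1.64-fold) and Id3, which fell by 1.22 on the log2 scale (adjusted p = 3.22e-06).

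**Figure D5:**
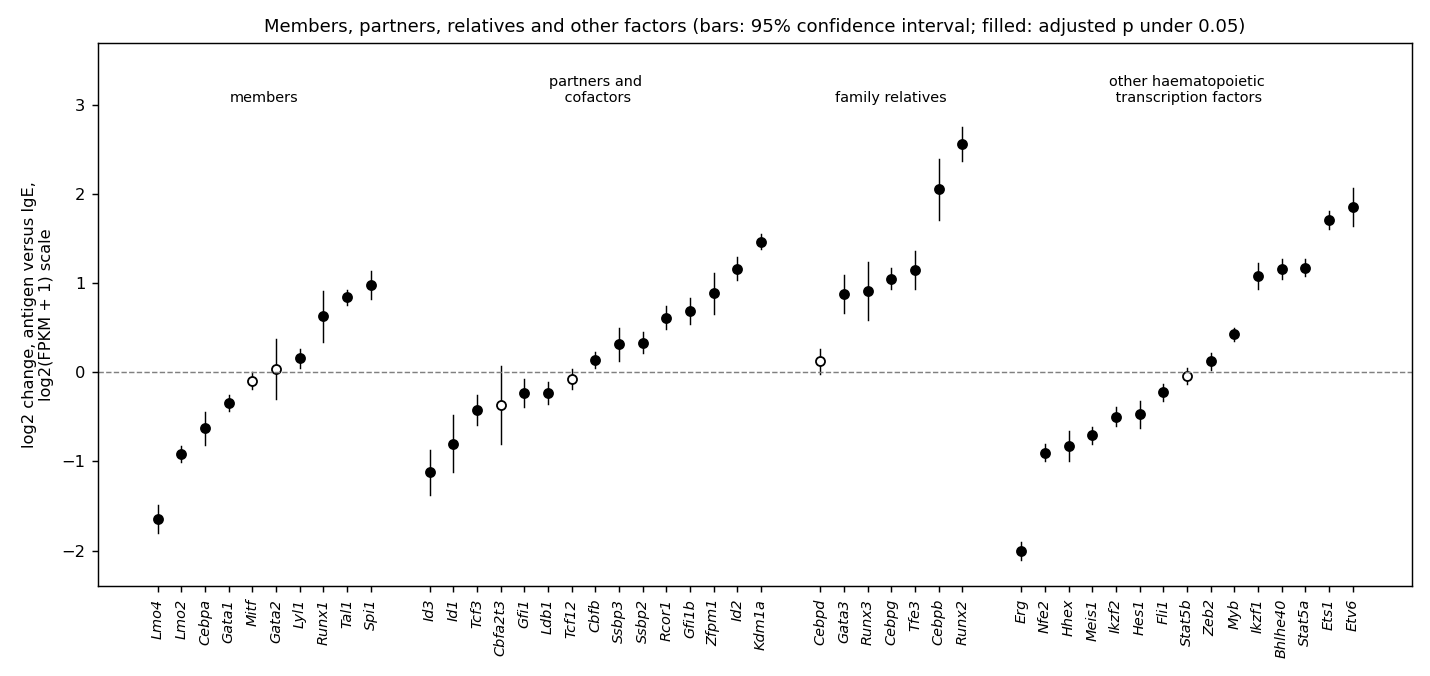
Log2 changes from IgE to antigen, on the log2(FPKM + 1) scale, of the 10 members and of the tested genes of 3 context lists, with 95% confidence intervals and filled points where the adjusted p is under 0.05. The members, the partners and the other haematopoietic factors spread to both sides of 0, from Erg at -2.003 to Etv6 at 1.86, and the tested relatives lie above 0. These relatives include Runx2, which passed the filter through its antigen libraries alone.

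Of 18 relatives of the 10 genes, 7 passed the filter. Gata4, Gata5, Lmo1 and Lmo3 were listed at 0 in all 9 libraries, with the same doubt about what a listed 0 means. Of the 7 tested relatives 6 were higher after antigen than with IgE and none was lower. The 6 include Runx2, which passed the filter through its antigen libraries alone. Its direction was therefore set by the filter, and it adds nothing to that count. Of all tested genes 37.6% were called higher and 36.2% lower. Runx2 went from 0.624 ± 0.177 to 8.57 ± 0.673 FPKM (log2 2.56, adjusted p = 1.37e-09) and was tested because of its antigen libraries alone. Runx3 rose 1.99-fold to 12.04 ± 0.368 FPKM (adjusted p = 0.000212), so after antigen Runx1 was still the highest of the RUNX genes, at 54.5 ± 2.94 FPKM. Cebpb rose 4.67-fold to 25.4 ± 3.31 FPKM (adjusted p = 6.59e-07) and Cebpg 2.13-fold to 40.9 ± 0.953 FPKM (adjusted p = 3.09e-08), beside the fall of Cebpa.

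Cebpd was the relative that did not pass against IgE. Gata3, a GATA factor of T and innate lymphoid cells, rose to 4.16 ± 0.518 FPKM (log2 0.88, adjusted p = 1.16e-05), far under Gata2. Tfe3, the X-linked relative of Mitf, rose 2.33-fold to 24.0 ± 0.507 FPKM over 2 antigen libraries (adjusted p = 2.73e-06), whereas with the 0 of antigen replicate 3 kept its value was -0.40 (adjusted p = 0.757). With IgE alone none of the 7 relatives was called by limma, beside 30.1% of all tested genes. The most abundant of the 7 were Cebpg (log2 0.03, adjusted p = 0.715) and Tfe3 (log2 -0.06, adjusted p = 0.619). None of the 7 had an unadjusted p under 0.05 in that comparison.

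Among 22 other haematopoietic transcription factors 15 were tested, and after antigen 7 were higher and 7 lower than with IgE. The shares over all tested genes were 37.6% higher and 36.2% lower. Erg, an ETS factor of stem cells and megakaryocytes, fell from 28.4 ± 0.308 to 6.33 ± 0.267 FPKM (log2 -2.003, adjusted p = 9.65e-11), and Ets1 rose 3.60-fold to 25.8 ± 1.01 FPKM (adjusted p = 2.93e-10). Nfe2, an erythroid and megakaryocytic leucine zipper factor, fell to 0.480 of its untreated level (log2 -1.04, adjusted p = 7.78e-09). Bhlhe40, a helix-loop-helix repressor, rose 2.25-fold and Stat5a, a mediator of IL-3 signals, 2.29-fold. With IgE alone Hes1, a Notch target, rose 1.38-fold (adjusted p = 0.001), Bhlhe40 fell to 0.742 of its untreated level (log2 -0.43, adjusted p = 0.000262), and Stat5a and Ikzf2 fell by 0.23 and 0.24 on the log2 scale.

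Genes of mast cell effector function, several of them known targets of GATA2 or MITF in mice, were tested for 23 of 26 listed. After antigen 16 were higher and 4 lower than with IgE, with a list median of 0.25. Over all tested genes 37.6% were called higher and 36.2% lower. Tpsab1, a tryptase gene, rose 55.0-fold from 3.77 ± 0.361 to 207 ± 5.35 FPKM (adjusted p = 3.91e-12), and Hdc, the histamine-forming enzyme, 31.2-fold from 28.7 ± 1.64 to 895 ± 28.9 FPKM (adjusted p = 6.02e-13). The cytokine gene Il13 rose 30.8-fold to 46.5 ± 3.27 FPKM (adjusted p = 4.94e-10). Ms4a2, the beta chain of the IgE receptor and a GATA target, was among the 4 that fell (log2 -0.78, adjusted p = 7.81e-07). With IgE alone 6 were higher and 7 lower, beside 15.9% higher and 14.2% lower over all tested genes. Among the 6 were the proteases Ctsg, up 1.88-fold (adjusted p = 4.38e-05), Gzmb, up 1.37-fold (adjusted p = 0.000627), and Mcpt4, up 1.83-fold (adjusted p = 0.000719). Bcl2, a survival gene described as a MITF target, fell to 0.792 of its untreated level (log2 -0.33, adjusted p = 0.000742).

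For each of the 10 genes, the tested genes with the most similar profile were ranked by Pearson's r of log2(FPKM + 1) over the 9 libraries (8 for Gata1), as a description with no test, since libraries of a group share their treatment. The profiles of Tal1, Spi1 and Gata1 were common ones, with 1406, 1368 and 1097 genes at r over 0.95. The Gata1 count was taken over 10889 genes and those of the other members over 10552. Hs3st1, a heparan sulfate sulfotransferase gene, was most similar to Tal1 (r = 0.998), followed by Stat5a (r = 0.998). Fewer genes passed 0.95 for Lyl1, Gata2 and Mitf (1, 8 and 35), and their nearest genes were Cry2 (r = 0.979), Pcnxl3 (r = 0.963) and Tmem59 (r = 0.987). These members also had the smallest antigen versus IgE changes of the 10, at log2 0.16, 0.04 and -0.10. Spread between replicates limits r where groups differ little, so a low count need not mean an unusual profile. For Runx1, with 123 genes over 0.95, the nearest was Kmt2a (r = 0.996), the gene of a histone methyltransferase. The Runx1 and Gata2 profiles hold the high values of IgE replicate 3. Their nearest genes also spread widely with IgE, at 3.126 ± 1.025 FPKM for Kmt2a and 5.881 ± 1.196 FPKM for Pcnxl3. The part of that library in these matches was not tested. The nearest profiles to Lmo2, Lmo4, Spi1, Cebpa and Gata1 were those of Ccdc14, Mbd4, Zfand3, Socs3 and B3gnt1, with r of 0.996, 0.998, 0.998, 0.989 and 0.998.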

How the data were processed

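The values are FPKM as deposited by the authors in 1 table, with 1 column per library. Alignment used TopHat2 2.0.12 and Bowtie 0.12.7 on mm9, per the submitters' processing notes; for the FPKM program, the annotation and any use of strand the sources used here name nothing. Each column was matched to its sample by name, and no other column was present. Tests used R 4.3.3 and limma 3.58.1 for the 10890 genes that reached 1 FPKM in 3 or more libraries, as log2(FPKM + 1) fitted by group means over all 9 libraries, an intensity trend and no covariate, two-sided, with Benjamini-Hochberg adjustment within each comparison. This scale understates the change of low genes, and plain folds are ratios of group means. Zeros of X and Y genes in antigen replicate 3 were treated as missing, with chromosomes looked up by symbol in RefSeq (145 symbols unmatched). Depth was estimated from 2966 genes with a single transcript over 1000 bases in GENCODE M21, as the number of reads that brought low values closest to whole reads, and covers counting error only. The fit was partial, with 58.4% to 67.8% of the low values of a library close to a whole number of reads. Members and gene lists were chosen with earlier results of these data known. Besides the members, the text names per list and comparison up to 4 called genes with the smallest adjusted p, or the 2 most abundant where none was called, genes set beside a member as partner, relative or marker, and the profile neighbours. Promoter sequences are RefSeq's (GRCm38.p6), and protein sequences were not used here. Etv6, Id1, Cd68, Cd14, Emr1, Tfrc, Hbb-bt and the basophil and megakaryocyte markers were named after their values were seen. Some genes that the rule selects or the lists hold are counted but not reported by name here.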

Additional observations from a re-analysis of the deposited data

How the results depend on the processing

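Each change was recomputed under 21 alternatives: 2 other pseudocounts, 2 filters, 3 scalings, no trend, only the groups compared, the X and Y zeros kept, a replicate block, and libraries left out. Of 630 recomputed values of the members, 591 kept their direction and call, 11 lost the call, 23 gained it and 5 changed direction. The 5 were Lyl1 in antigen versus IgE with quantile normalization (-0.12) and Gata2 in the same comparison with median centring (-0.0054), quantile normalization (-0.28), and without IgE replicate 1 (-0.074) or 2 (-0.0784), where libraries left out gave -0.0784 to 0.2725. Of 1112 values of other named genes 5 changed direction: Cbfb in antigen versus IgE (-0.10, quantile normalization), Tfe3 with the zeros kept (-0.40 against IgE and -0.46 against untreated), and Cebpg in IgE versus untreated without untreated replicate 1 (-0.0183) or IgE replicate 1 (-0.0017), where libraries left out gave -0.0183 to 0.0811. The cause was not tested. Called members in IgE versus untreated went from 5 to 8 without IgE replicate 3, also with antigen replicate 3 left out (8), while called genes went from 3273 to 4366 and 4216, and called members ran from 4 to 8 over libraries left out. In antigen versus IgE they ran from 7 to 10, and in antigen versus untreated from 8 to 9. With median centring and with quantile normalization 3 members were higher and 5 lower in antigen versus IgE, against 4 and 4. In antigen versus untreated, quantile normalization gave 2 higher and 7 lower, against 3 and 5. Counts over all genes stayed within 1.5 times the main count under all alternatives run. Of 74 recomputed group means of the ratios 73 moved by less than 1 SD. A mean with 1 library left out cannot move by 1 SD of its group, so only the values with another pseudocount could have moved.

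Same-numbered libraries of different groups had correlations of their deviations from -0.332 to 0.351, over 0.1 in 2 of 9 pairs, and 2 of 9 libraries matched best with their own number, so the numbers were not read as pairs. With the replicate block, called members stayed at 8, 5 and 8 in antigen versus IgE, IgE versus untreated and antigen versus untreated, and called genes were 7946, 2953 and 7989, against 8040, 3273 and 8087.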
